A study of Mus musculus with 8 samples.

Results

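The cells described here are cortical interneurons chosen for Htr3a, Npas1 or Adarb2, 3 genes used to mark interneurons of the caudal ganglionic eminence. They were selected on measured counts of unique molecular identifiers (UMIs, 1 per captured transcript). A member had 2 or more UMIs of Htr3a, Npas1 and Adarb2 together, 1 or more UMI of the GABA genes Gad1, Gad2 and Dlx6os1 together, 0 UMIs of Lhx6 and at most 3 UMIs of Ccnd2. Of 15547 cells, 151 met this rule, 117 of 7233 in the wild type (WT) library and 34 of 8314 in the ShhN library. A droplet barcode counted as a cell from 2300 UMIs and 800 genes upward, with mitochondrial genes at 10% of its UMIs or less. The rule's 8 genes are given below as a description only. The comparison class, Lhx6-positive interneurons, had 1 or more UMI of Lhx6 and the same limits on the GABA genes and Ccnd2, and held 464 WT and 161 ShhN cells.

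The study measured single-cell RNA in the cortex of CD1 mice at embryonic stage E16.5. The WT group is 4 samples of littermates, for which the labels name no electroporated plasmid. The ShhN group is 4 samples in which a plasmid of ShhN, the signalling fragment of sonic hedgehog (SHH), was electroporated in utero at stage E13.5. Tissue was dissected under a fluorescence stereoscope, dissociated with papain and run on the 10x Chromium droplet system. The 4 samples of a group share 1 matrix whose barcodes cannot be traced to samples, so each group was 1 library, no difference between groups has a replicate check, and no test was made. Brackets hold exact 95% intervals, which cover counting error only and not differences between embryos, electroporations or libraries. Intervals of gene ratios count each UMI as independent. They therefore also leave out differences between the cells of a class, and so does the size rule used below.

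Cortical interneurons are born in the ventral forebrain, mostly in the medial and caudal ganglionic eminences, and migrate tangentially into the cortex. Medial eminence interneurons depend on the transcription factor Lhx6 and become mainly somatostatin (Sst) and parvalbumin (Pvalb) cells. Caudal eminence interneurons use transcription factors such as Prox1, Nr2f2 and Sp8, carry the ionotropic serotonin receptor subunit Htr3a, and become cells with Vip, reelin or cholecystokinin and the neurogliaform cells of the upper layers. SHH is best known in this setting for maintaining the medial eminence identity of ventral progenitors.

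The libraries held 63760199 WT and 69470062 ShhN UMIs, with a median of 6385 and 6759 per cell. Members were shallower, with a median of 3890 UMIs and 1769 genes in WT and 3946 UMIs and 1752 genes in ShhN. Lhx6-positive cells were close to them, at 3808 and 4103 UMIs. Of all cell barcodes, 79 occurred in both libraries, against 81.6 from the product of the cell numbers over the listed barcodes, and none of them was a member. A doublet caller marked 6 of 117 WT and 1 of 34 ShhN members, and 44 and 5 of the Lhx6-positive cells. These cells were kept.

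The 3 selecting genes overlapped only in part. Htr3a (chromosome 9, 48899213 to 48911099, GRCm38) was seen in 64 WT members (54.7% [45.2, 63.9]) and 10 ShhN members (29.4% [15.1, 47.5]). Npas1 (chromosome 7, 16455721 to 16477728), a basic helix-loop-helix transcription factor, was seen in 97 (82.9%) and 32 (94.1%). Adarb2 (chromosome 13, 8202866 to 8768747), a relative of RNA-editing enzymes, was seen in 43 (36.8%) and 13 (38.2%). All 3 genes were seen together in 12 WT and 4 ShhN members. Npas1 was the only one of the 3 in 31 WT members (26.5% [18.8, 35.5]) and 16 ShhN members (47.1% [29.8, 64.9]). The other 86 WT and 18 ShhN members had an Htr3a or Adarb2 UMI.

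Npas1 was much less particular than its partners. Among Lhx6-positive cells, which the rule leaves out, 27.4% of WT and 46.6% of ShhN cells had an Npas1 UMI, while Htr3a was seen in 2.16% and 0%, and Adarb2 in 0.862% and 0% (0 of 161 cells allows a share of up to 1.86%). In excitatory cells, which had no GABA gene UMI and 3 or more of Neurod2 and Neurod6, the shares were 1.01% and 0.439% for Npas1, 0.277% and 0.0879% for Htr3a, and 0.156% and 0.117% for Adarb2. These cells were deeper, at a median of 6684 and 6856 UMIs. The limits of the rule passed through populated ranges. Of the members, 36 WT and 15 ShhN cells had a marker sum of exactly 2, and 68 and 15 further cells met every other term with a sum of 1. Another 70 WT and 46 ShhN cells had the marker sum but also an Lhx6 UMI, and 51 and 36 of those carried Sst or Sox6. The limit on Ccnd2 left out 5 and 6 cells.

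The label was compared with genes the rule did not use, and members with an Htr3a or Adarb2 UMI matched it. This group was chosen after seeing the data, so the match is a description and no independent check. The limit of 0 Lhx6 UMIs also leaves out cells that often carry Sst or Sox6, so low counts of both were favoured by the rule. Nr2f2 (chromosome 7, 70351944 to 70366735), the orphan nuclear receptor also called COUP-TFII, was seen in 79.1% [69.0, 87.1] of the 86 such WT members and 66.7% [41.0, 86.7] of the 18 in ShhN. Prox1 (chromosome 1, 190118035 to 190170714), a homeobox factor, was seen in 46.5% and 38.9%. Sp8 (chromosome 12, 118846329 to 118852576), a zinc finger factor, was seen in 31 of 86 and 9 of 18. At least 1 of these 3 factors, with neither Sst nor Sox6, was seen in 77 of 86 (89.5% [81.1, 95.1]) and 16 of 18 (88.9% [65.3, 98.6]). Sst (chromosome 16, 23889573 to 23890958), the medial eminence neuropeptide, had 0 UMIs in all of them, which allows a share of up to 3.49% in WT and 16.7% in ShhN. Sox6 (chromosome 7, 115470872 to 116038796), a medial eminence transcription factor, was seen in 2 of 86 and 0 of 18.

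Members with Npas1 alone were a mixture and did not match the label as a group. Of the 31 in WT, 17 (54.8% [36.0, 72.7]) had Nr2f2, Prox1 or Sp8 without Sst or Sox6, 7 had Sst or Sox6 without those factors, 2 had both and 5 had neither. Of the 16 in ShhN, 7 (43.8% [19.8, 70.1]) had the caudal pattern, 7 the medial pattern, 1 both and 1 neither. Sst was seen in 7 of 31 and 7 of 16 of these cells, and Sox6 in 6 and 6. All Sst UMIs of members, 90 in WT and 54 in ShhN, lay in these 14 cells, and 1 cell of each library held 41.1% and 44.4% of them. Satb1, a chromatin regulator of maturing medial eminence interneurons, reached 296 CPM (its UMIs divided by all UMIs of the class, times 1000000) in WT members with Npas1 alone against 75.9 CPM in the other WT members. In ShhN members it was 392 against 92.5 CPM. Cxcl14 and Cnr1 went the other way, at 142 against 240 and 509 against 864 CPM in WT, and at 56.0 against 411 and 420 against 904 CPM in ShhN. A count of 0 Lhx6 UMIs does not show that a cell lacks Lhx6, and the part of missed Lhx6 in the Sst-carrying members was not tested.

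**Figure D1:**
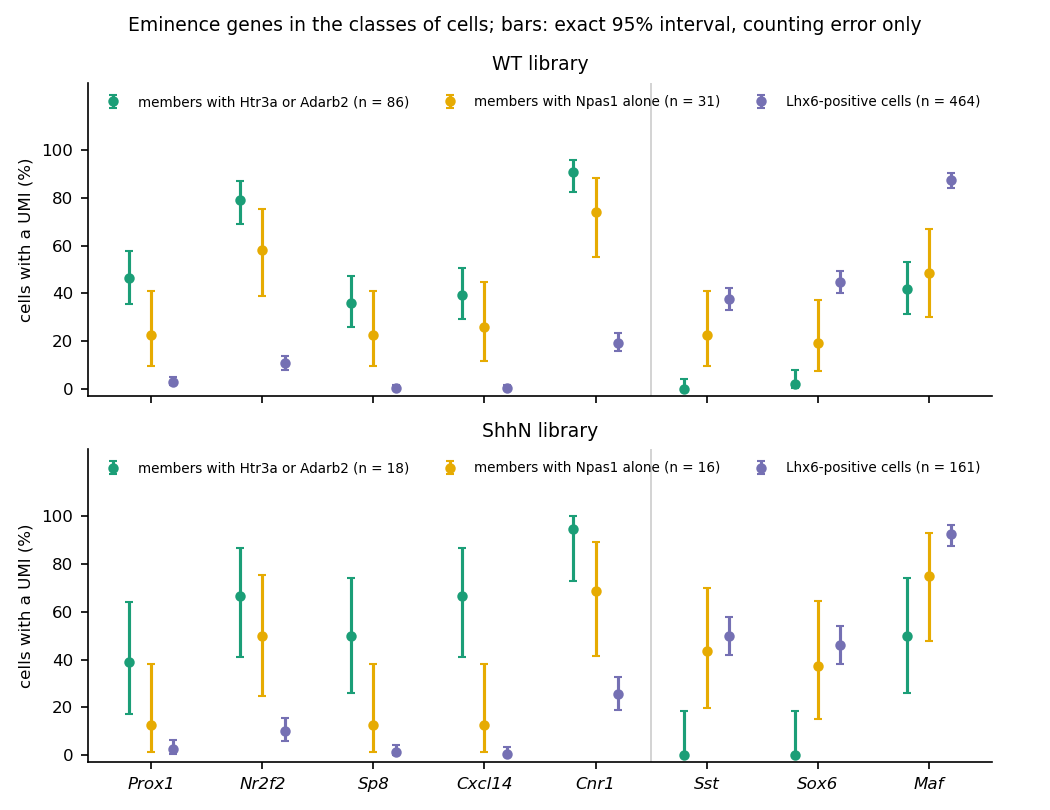
Share of cells with a UMI (y axis, %) of 5 caudal and 3 medial eminence genes (x axis) in members with Htr3a or Adarb2, members with Npas1 alone and Lhx6-positive cells, in the WT (top) and ShhN library (bottom); bars are exact 95% intervals. Sst was at 0% in members with Htr3a or Adarb2 and at 22.6% and 43.8% in those with Npas1 alone.

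The shares in all members, those with Npas1 alone included, were read against background cells and at equal depth. After each cell was thinned to 2300 UMIs, which left out no cell, Nr2f2 was seen in 52.1% of WT and 47.1% of ShhN members, Prox1 in 27.4% and 23.5%, and Sp8 in 23.9% and 17.6%. In excitatory cells thinned alike the shares were 8.49% and 3.92% for Nr2f2, 1.07% and 0.718% for Prox1, and 0.225% and 0.249% for Sp8. Nr2f2 is also a vascular gene, and it was seen in 43.8% of 48 WT and 30.3% of 33 ShhN vascular cells at that depth. Sp8 was seen in none of them.

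Members were rarer in the ShhN library. They made up 1.62% [1.34, 1.94] of WT and 0.409% [0.283, 0.571] of ShhN cells, a ratio of 0.253 [0.167, 0.373]. Lhx6-positive interneurons were lower too, 6.42% [5.86, 7.0] against 1.94% [1.65, 2.26], with a ratio of 0.302 [0.251, 0.362]. The ratio of all members mixes 0.182 [0.103, 0.305] for those with Htr3a or Adarb2 and 0.449 [0.229, 0.846] for those with Npas1 alone. There were 0.252 [0.204, 0.309] members per Lhx6-positive cell in WT and 0.211 [0.141, 0.307] in ShhN. Members were 20.1% of both classes together in WT and 17.4% in ShhN, a ratio of 0.866 [0.573, 1.28] whose interval includes 1. That interval took the totals of both classes as fixed, although they contain the members, so it is approximate. A share of dissociated cells cannot tell fewer members from more of the other cells.

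Both kinds of member made up less of all cells in ShhN. Members with Htr3a or Adarb2 went from 1.19% [0.952, 1.47] to 0.217% [0.128, 0.342] of cells, a ratio of 0.182 [0.103, 0.305]. Members with Npas1 alone went from 0.429% [0.291, 0.608] to 0.192% [0.110, 0.312], a ratio of 0.449 [0.229, 0.846]. The 2 intervals overlap, and the difference between the ratios was not tested. Among GABA-positive cells, those with 1 or more UMI of the GABA genes, members were 12.1% [10.1, 14.3] of 967 WT and 5.21% [3.64, 7.21] of 652 ShhN cells. Against that denominator the ratio was 0.310 [0.176, 0.520] for members with Htr3a or Adarb2. For members with Npas1 alone it was 0.765 [0.391, 1.44], an interval that includes 1. That denominator changed in makeup: GABA-positive cells with 4 or more Ccnd2 UMIs were 51 in WT and 337 in ShhN, 0.705% and 4.05% of all cells. Thinning every cell to 2300 UMIs and applying the rule again left 74 WT and 20 ShhN members, with a ratio of 0.235 [0.136, 0.390].

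**Figure D2:**
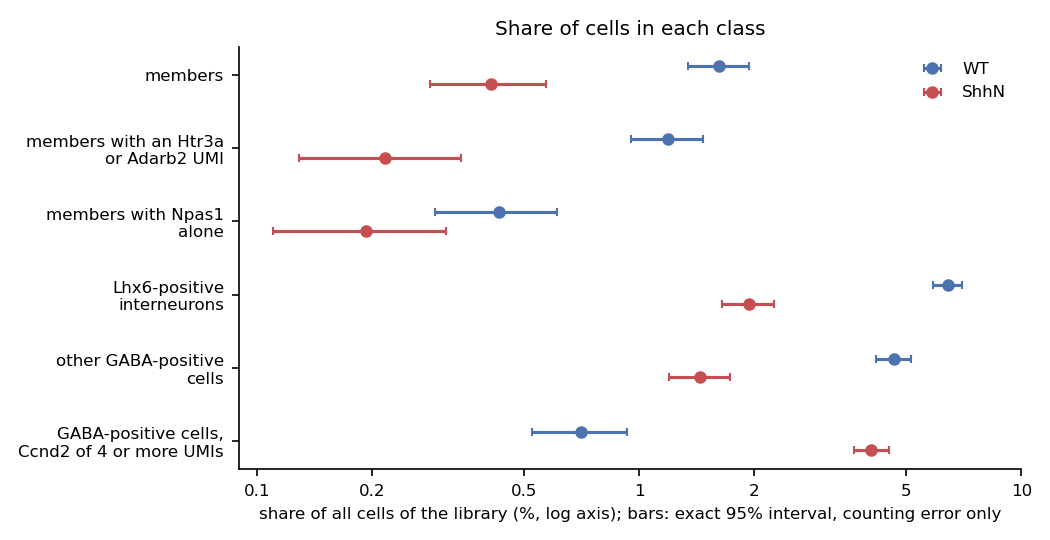
Share of all cells (x axis, %, log scale) in each class (y axis) in the WT and ShhN library; points are shares and bars exact 95% intervals. Members, Lhx6-positive cells and other GABA-positive cells were all lower in ShhN, and GABA-positive cells with 4 or more Ccnd2 UMIs were higher.

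No Shh UMI was found in a member. Shh, the electroporated gene, was at 0 of 117 WT members, which allows a share of up to 2.56% of cells with a UMI, and at 0 of 34 ShhN members, which allows up to 8.82%. Over all cells Shh was seen in 0 of 7233 WT and 607 of 8314 ShhN cells (7.30% [6.75, 7.88]), and in 5 of 161 ShhN Lhx6-positive cells. The SHH targets Gli1, Hhip, Nkx2-2 and Foxf1 had 0 UMIs in members of both libraries. Ptch1, the SHH receptor and feedback inhibitor, had 10 UMIs in WT and 1 in ShhN members. The summed targets were at 166 CPM in WT and 124 CPM in ShhN members, and no listed target, receptor or mediator reached 50 UMIs over both libraries. Smo, the signal transducer, had 8 and 3 UMIs, and Gli2 had none in either.

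Members were next set against Lhx6-positive cells of the same library, to describe what separates both kinds of interneuron beyond the genes that chose them. A gene counted as measured from 50 UMIs in both classes together. It passed the size rule where the log2 ratio of CPM was 1 or more in either direction and the interval kept a distance of 0.5 or more from 0. Of 6141 genes measured in WT, 54 were higher in members (0.879%) and 80 lower (1.3%). In ShhN, with fewer cells, 17 of 2957 were higher (0.575%) and 18 lower (0.609%). By the bound nearest 0, the 15 highest and 14 of the lowest WT genes are described here. All of these had the same sign in ShhN, but 5 of them had 0 UMIs in ShhN members, which gives a negative sign at any depth. For 1 of these, Id3, the floor of 3 UMIs lies above the level in Lhx6-positive cells, so no direction is shown. Of the 4 higher and 9 lower that reached 50 UMIs in ShhN, 3 and 6 passed the size rule, and none passed it the other way. The agreement was smaller over all genes that passed in WT. Of the 54 higher and 80 lower, 46 and 76 had the same sign in ShhN, where a count of 0 in 1 class also sets the sign. Of these genes, 18 and 51 reached 50 UMIs in ShhN, and 8 and 14 passed the size rule there.

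Leaving out the genes of the rule, the gene that ranked highest in WT members was Cxcl14. This gene (chromosome 13, 56288643 to 56296551), a chemokine, had 122 UMIs in 42 WT members and 4 UMIs in 2 Lhx6-positive cells, or 211 against 1.77 CPM (log2 ratio 6.90 [5.50, 8.80]). In ShhN it had 44 UMIs in members and 9 in 1 Lhx6-positive cell (4.56 [3.50, 5.78]). Sp8 had 50 and 3 UMIs in WT (6.03 [4.39, 8.35]) and 19 and 3 in ShhN. Prox1 was at 145 against 10.6 CPM (3.77 [3.10, 4.49]) and Nr2f2 at 455 against 47.4 CPM (3.26 [2.93, 3.6]) in WT. The ShhN ratio of Nr2f2 was 2.32 [1.74, 2.91].

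Cnr1 (chromosome 4, 33924593 to 33948831), the cannabinoid receptor CB1, stood at 760 against 84.2 CPM in WT (3.17 [2.93, 3.43]) and 699 against 98.5 CPM in ShhN (2.83 [2.41, 3.25]). Cnr1 is also abundant in excitatory cells, at 204 CPM in WT. These 5 genes were on the list of caudal eminence genes, and the other 10 of the 15 were not. Wnt5a, a secreted Wnt ligand, was seen in 46 of 117 WT members and 12 of 464 Lhx6-positive cells, with 56 and 15 UMIs (3.87 [3.02, 4.80]) and a ShhN ratio of 4.38 [2.52, 6.83]. Igf1 (chromosome 10, 87858265 to 87937042), an insulin-like growth factor, had 69 and 19 UMIs (3.83 [3.08, 4.64]). The actin-bundling protein Pls3 (3.90), the G protein regulator Rgs16 (3.44) and Rwdd3 (3.13) were also more than 8 times higher in WT, and their ShhN ratios were 4.73, 5.07 and 3.73 on 13, 8 and 15 UMIs.

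The last 5 of the 15 were smaller differences. The protocadherin Pcdh9 had a log2 ratio of 2.16 [1.72, 2.60] in WT and 1.31 [0.40, 2.17] in ShhN, the calcium channel subunit Cacna2d3 of 2.49 and 1.94, and the cadherin Cdh4 of 2.43 and 0.46. The ubiquitin ligase Pdzrn3 was at 2.36 and 0.81, and the synaptotagmin Syt6 at 2.48 and 1.81. The ShhN intervals of Cdh4 and Pdzrn3 include 0.

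Sox6 was among the genes lowest in members. It had 11 UMIs in members and 319 in Lhx6-positive cells of WT (-2.89 [-3.91, -2.03]) and 9 and 105 in ShhN (-1.28 [-2.45, -0.30]). Nxph1 and Nxph2, neurexophilins that bind neurexins, were at -2.82 [-3.37, -2.32] and -3.81 [-5.70, -2.43] in WT, and at -1.62 and -2.39 in ShhN. Ackr3, an atypical receptor that scavenges the chemokine Cxcl12 in migrating interneurons, had 1 UMI in WT members and 100 in WT Lhx6-positive cells (-4.68 [-10.0, -2.17]), and 0 and 25 in ShhN. Igfbp4, which binds insulin-like growth factors, had 10 and 370 UMIs in WT (-3.24) and 0 and 113 in ShhN, at least 7.83-fold lower against a floor of 3 UMIs per class. Efcab6 had 0 and 61 UMIs in WT, at least 5.20-fold lower.

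Gria1, an AMPA receptor subunit, was at 74.5 against 405 CPM in WT (-2.44 [-2.92, -2.0]) and at -1.55 [-2.25, -0.93] in ShhN. Grm5, the metabotropic glutamate receptor, was at -2.18 [-2.86, -1.58] and -0.99 [-1.75, -0.30]. Sst was at -2.02 and -1.70, set by the 14 members with Npas1 alone described above. The others were the guanylate cyclase subunit Gucy1a3 (-3.10 and -0.98), Cux2 (-2.49 and -1.85), Tox2 (-3.15, and 0 against 36 UMIs in ShhN), Sh3rf3 (-3.23 and -1.94) and Id3 (-2.99, and 0 against 12 UMIs). The ShhN intervals of Gucy1a3 and Sh3rf3 include 0. With Lhx6-positive cells limited to those without Htr3a, Npas1 or Adarb2 UMIs, 25 of these 29 genes still passed the size rule in WT.

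**Figure D3:**
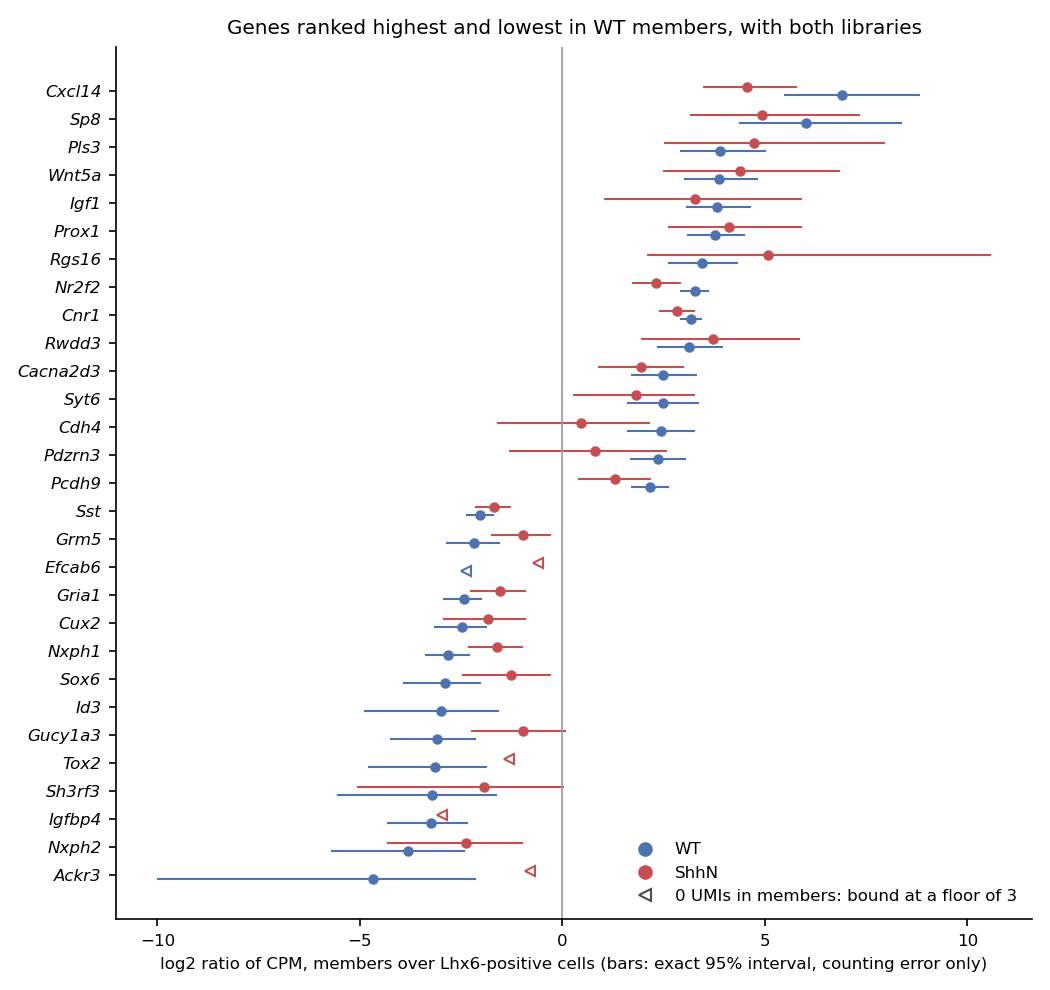
Log2 ratio of CPM between members and Lhx6-positive cells (x axis) for 15 of the highest and 14 of the lowest genes of the WT library (y axis), with both libraries; points are ratios, bars exact 95% intervals, and open triangles bounds for genes with 0 UMIs in members. Id3 has no ShhN bound because the floor of 3 UMIs lies above its level in Lhx6-positive cells.

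Lists of genes were then counted as wholes in the same comparison, beside a median log2 ratio over all measured genes of 0.01 in WT and -0.02 in ShhN. Of the 14 caudal eminence genes 9 were measured in WT and 5 passed higher (Prox1, Nr2f2, Sp8, Cnr1 and Cxcl14), with a median of 3.17. In ShhN 3 of 7 passed (Nr2f2, Cnr1 and Cxcl14), with a median of 0.94. Sp8, which passed in WT, was among the genes with too few UMIs to count as measured in ShhN. The caudal medians of WT and ShhN therefore cover different genes, and the difference between them was not tested. Vip, Lamp5 and Htr3b had 0 UMIs in members of both libraries, and Calb2 had 0 in WT and 4 in ShhN members. Reln (0.36 [-0.02, 0.73]), Cck (-0.13), Id2 (0.44) and Nr2f1 (0.81) did not pass in WT.

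Of the 15 medial eminence genes 9 were measured in each library, and 8 passed lower in WT and 4 in ShhN, with medians of -1.63 and -1.01. Besides Sox6, Sst and Nxph1, these included the transcription factors Maf (-1.81 in WT and -1.01 in ShhN) and Mef2c (-1.37 and -0.95), the neuropeptide Npy (-1.63 and -1.62) and the synaptic organiser Elfn1 (-1.46 and -0.69), of which Maf and Npy passed in both. Nkx2-1, Lhx8, Pvalb and Tac1 had 0 UMIs in members of both libraries. Maf was still seen in 41.9% of the WT members with Htr3a or Adarb2, against 87.3% of Lhx6-positive and 1.66% of excitatory cells.

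Of the 9 genes common to cortical interneurons 2 passed, both lower in WT members, among them Sp9 (-1.43 [-1.82, -1.07]), a transcription factor of migrating interneurons. Dlx1 (0.75), the vesicular GABA transporter Slc32a1 (0.03) and Erbb4 (-0.24) did not pass. In ShhN none of the 8 measured passed, and Sp9 was at -0.83 [-1.75, -0.03]. Of 12 lateral eminence and olfactory bulb genes 3 were measured in WT and none passed. Pbx3, with 37 UMIs in WT members and 8 in Lhx6-positive cells, and Pax6, with 25 and 19, fell short of 50 UMIs in all. The classes held 577422 and 2256085 UMIs, so both genes were higher in members per UMI, but the size rule was not applied to them.

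Among 20 migration and guidance genes 15 were measured in WT, and Nrp2 passed higher and Ackr3 lower. Nrp2, a semaphorin receptor, was at 130 against 34.6 CPM in WT (1.91 [1.43, 2.39]), and had 14 and 8 UMIs in ShhN (3.07 [1.72, 4.53]). Within WT members Nrp2 passed the size rule higher in those with Npas1 alone than in the others. Within ShhN members it had 2 UMIs in those with Npas1 alone and 12 in the others (-2.14 [-5.34, 0.03]). Dcx, the microtubule protein of migrating neurons, was at -0.13 [-0.28, 0.01] in WT and Cxcr4, the receptor of Cxcl12, at -0.41 [-1.05, 0.18]. Among 31 receptor and chloride transporter genes 11 were measured in WT. Gabra2, a GABA-A receptor subunit, passed higher (1.01 [0.65, 1.37]), and the AMPA receptor subunits Gria1 and Gria4 (-2.53 [-4.0, -1.37]) lower, while Gria2 was at 0.17 [-0.03, 0.37].

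None of 18 measured maturation genes passed in WT (median 0.12). In ShhN 2 of 14 passed higher, the synaptotagmin Syt4 (1.40 [0.88, 1.91]) and the complexin Cplx2 (1.20 [0.76, 1.63]), which in WT were at 0.11 and 0.91. Of the 51 Syt4 UMIs of ShhN members, 43 lay in 4 members with Npas1 alone. Of 11 measured genes of immature neurons Btg1, an antiproliferative gene, passed higher in WT (1.06 [0.90, 1.23]) and was at 0.97 in ShhN. Cell cycle genes were scarce, at 142 CPM in WT and 184 CPM in ShhN members over 21 genes, and Mki67 had 0 UMIs in members of both libraries. Ube2c, a mitotic ubiquitin enzyme, was the only cycle gene to pass, with 1 UMI in WT members and 61 in Lhx6-positive cells. Among WT Lhx6-positive cells 1 cell held 34.8% of the cycle gene UMIs, and the median cell was at 0 CPM. None of the immediate early or stress genes passed in either library.

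**Figure D4:**
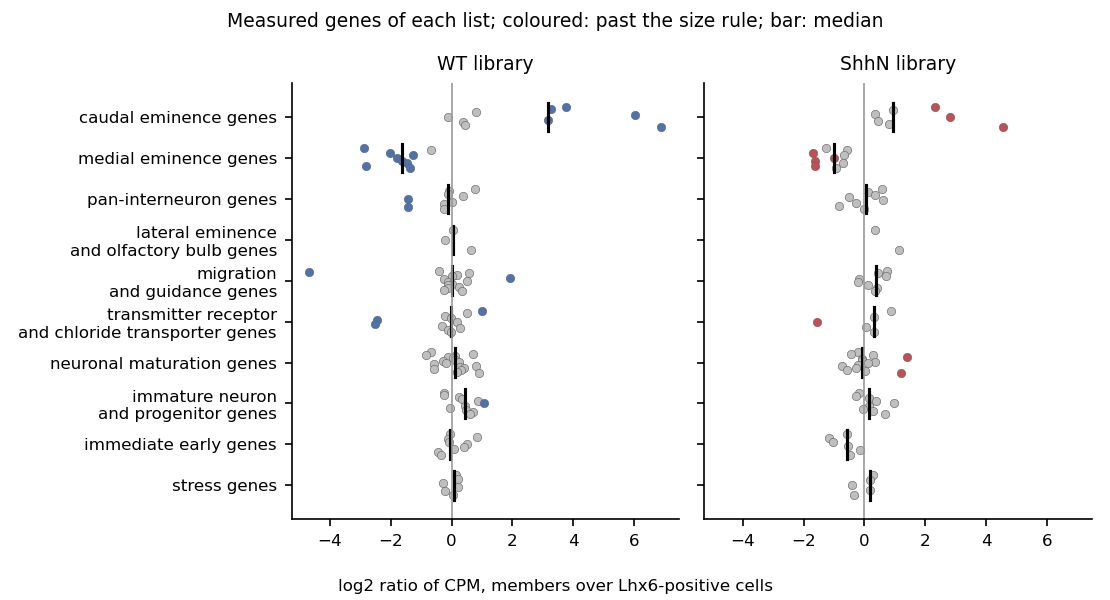
Log2 ratio of CPM between members and Lhx6-positive cells (x axis) for the genes of 10 lists (y axis) with at least 50 UMIs, in the WT (left) and ShhN library (right); coloured points passed the size rule and bars are list medians. The median of the caudal list lay to the right of 0 and that of the medial list to the left in both libraries, at 3.17 and -1.63 in WT.

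RNA of other cell types was measured in the same cells. The 12 excitatory neuron markers summed to 897 CPM in WT and 764 CPM in ShhN members, with 0 to 3344 and 0 to 2591 CPM per cell, against 834 and 671 CPM in Lhx6-positive cells. In excitatory cells the list was at 3658 and 3618 CPM, and in droplets of 1 to 50 UMIs, which hold free RNA, at 2809 and 2894 CPM. Eomes and Neurog2 were at 0 in ShhN members. Neurod1 was the excitatory marker that passed between classes, lower in WT members (-2.01). Of the 7 vascular markers 5 were at 0 in WT members and 6 in ShhN members, Cldn5 and Pdgfrb in both. Of the 7 microglia markers 6 were at 0 in WT members and all in ShhN members. The 9 glial markers summed to 76.2 CPM in WT members, 26 of which had a UMI (22.2%), and to 29.6 CPM in ShhN members, 4 of which had one (11.8%). In Lhx6-positive cells they were at 66.5 and 33.3 CPM, with a UMI in 11.6% and 12.4% of cells, and in all cells at 441 and 366 CPM. Olig1, Olig2 and Pdgfra were at 0 in members of both libraries. The 9 Cajal-Retzius markers, which include Reln, summed to 175 CPM in WT and 273 CPM in ShhN members, against 173 and 236 CPM in Lhx6-positive cells and 139 and 67.4 CPM in all cells. A UMI of the list was seen in 38.5% of WT and 55.9% of ShhN members. Trp73, Lhx5, Ebf2, Ebf3 and Nhlh2 were at 0 in members of both libraries.

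Globin transcripts, which come from blood, were at 1340 CPM in WT and 563 CPM in ShhN members, and at 8970 and 606 CPM in Lhx6-positive cells. The WT Lhx6-positive value rested on 4 cells above 1% globin, 1 of them at 62.5%, and was 1219 CPM without them. Leaving out cells above 1% globin left 51 genes higher and 76 lower in WT members. The part of these other transcripts in the results was not tested.

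Between the libraries few genes differed in members. Of 2460 measured genes 4 were higher in ShhN members (0.163%) and 7 lower (0.285%), beside a median over all of -0.03. In Lhx6-positive cells, with more counts, 8 of 6307 were higher (0.127%) and 25 lower (0.396%). Of the 7 lower in members 3 were the globins Hba-a1, Hbb-bs and Hbb-bt. With members thinned to 2300 UMIs each, 3 genes passed, and none of the 7 named below was among them.

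The 4 genes lower in ShhN members besides globins were Epha4, Chd7, Igf1 and Zbtb20. Epha4 (chromosome 1, 77367185 to 77515088), an ephrin receptor of axon and migration guidance, had 54 UMIs in 33 of 117 WT members and 4 UMIs in 4 of 34 ShhN members (-1.98 [-3.91, -0.54]), and it was lower in Lhx6-positive cells too (-1.35 [-1.93, -0.81]). Chd7, a chromatin remodeller, had 69 and 6 UMIs (-1.75 [-3.24, -0.55]) and was at -1.56 in Lhx6-positive cells, also past the rule. Igf1 likewise had 69 and 6 UMIs, in 30 and 4 cells, and 19 and 3 in Lhx6-positive cells. Zbtb20, a zinc finger repressor, had 199 and 23 UMIs (-1.34 [-2.03, -0.71]), a single WT cell holding 24.6% of them, and was at -0.75 [-0.96, -0.55] in Lhx6-positive cells.

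Kctd12, Syt1 and Sst were among the genes higher in ShhN members. Kctd12, an auxiliary subunit of the GABA-B receptor, had 36 WT and 26 ShhN UMIs (1.31 [0.52, 2.07]) and was at 1.24 [0.83, 1.66] in Lhx6-positive cells, where it passed as well. Syt1, the calcium sensor of vesicle release, had 93 and 57 UMIs (1.07 [0.57, 1.56]) and was at -0.06 [-0.28, 0.17] in Lhx6-positive cells. The difference between both classes was not tested, with 1 library per group.

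Sst was at 156 CPM in WT and 320 CPM in ShhN members (1.04 [0.52, 1.54]), and at 0 UMIs in the members with Htr3a or Adarb2 of both libraries. Within members with Npas1 alone it was at 532 CPM in WT and 756 CPM in ShhN, and these cells were 26.5% of WT and 47.1% of ShhN members. The part of that share in the difference was not tested. In the members with Htr3a or Adarb2 0 of 1710 genes were higher and 4 lower, of which 2 were globins. There the ratios of the other named genes were -1.14 [-3.09, 0.34] for Epha4, -1.42 [-3.09, -0.11] for Chd7, -1.63 [-3.56, -0.19] for Igf1, -1.18 [-2.17, -0.32] for Zbtb20, 1.20 [0.48, 1.90] for Syt1 and 1.61 [0.58, 2.60] for Kctd12, on 18 ShhN cells.

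**Figure D5:**
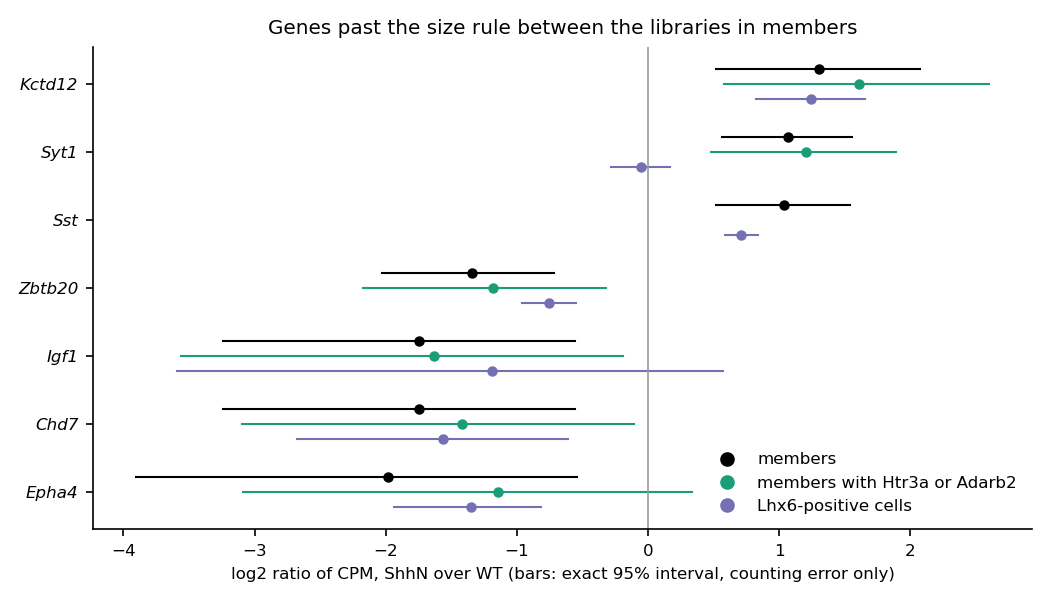
Log2 ratio of CPM between the ShhN and WT library (x axis) for the 7 named genes (y axis) in members, in members with Htr3a or Adarb2 and in Lhx6-positive cells; points are ratios and bars exact 95% intervals. Syt1 was at 1.07 in members and at -0.06 in Lhx6-positive cells, and Sst had 0 UMIs in members with Htr3a or Adarb2.

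The genes that mark the caudal class did not pass between the libraries within members. None of 9 measured caudal eminence genes passed (median -0.12), with Cxcl14 at 0.30 [-0.23, 0.81], Sp8 at 0.38 [-0.47, 1.17], Cnr1 at -0.12 [-0.43, 0.18], Prox1 at -0.45 [-1.27, 0.30], Nr2f2 at -0.54 [-0.99, -0.11] and Reln at 0.70 [0.10, 1.27]. In members with Htr3a or Adarb2 the caudal median was 0.036 over 8 measured genes, none past the rule. The caudal list summed there to 3220 CPM in WT and 3359.5 CPM in ShhN, against 2894 and 2743 CPM in all members. Across all members none of 8 pan-interneuron genes passed, with Dlx1 at -0.47 [-0.95, -0.01]. Of 7 measured medial eminence genes 2 passed higher in members, Sst among them, with a list median of 0.90. In Lhx6-positive cells the median was 0.18 over 9 measured genes, so these medians cover different genes. The list summed to 1507 CPM in WT and 2548 CPM in ShhN members. In members with Htr3a or Adarb2 it was at 1097 and 1264 CPM, with 2 genes measured and none past the rule. Of 13 maturation genes Syt1 passed, with a list median of 0.20. None of 9 genes of immature neurons passed (median -0.18), nor any of 7 immediate early genes (median -0.40) or 3 stress genes. Of 9 migration genes Epha4 passed. The width of these intervals shows the depth limit: with 34 ShhN cells, the ratios of Prox1 and Sp8 could lie on either side of 0.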

How the data were processed

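The deposited matrices hold raw UMI counts per gene and barcode, 1 for WT and 1 for ShhN, matched to the groups by their control and experimental prefixes. The submitters' processing notes name Cell Ranger, StringTie, Seurat 3 and mm10, without their roles. The members, the gene lists and the tests were chosen with earlier results of these data known. Counts were summed per class and library, divided by the class total and compared as log2 ratios of CPM with exact conditional binomial intervals. Shares have Clopper-Pearson and sums exact Poisson intervals. For counts of 0, the limit was 3 counts. Between libraries, up to 12 genes in each direction that passed the size rule were named. Against Lhx6-positive cells, 15 in each direction in WT were named. Both were ranked by the interval bound nearest 0, leaving out the 8 rule genes, globins, Alas2, mitochondrial and sex-linked genes and unnamed gene models; genes of the 19 lists could also be named. Some genes counted in the totals are not reported here. Doublets were called with Scrublet (scanpy 1.11.5, 6% expected). Other tools were Python 3.11.15, numpy 2.4.6, scipy 1.17.1, pandas 2.3.3, matplotlib 3.10.9 and, for TMM factors, edgeR 4.0.16 in R 4.3.3. The calculation of ratios and intervals was checked on simulated counts with known ratios, which is no test of these data. Gene positions came from the GRCm38 reference annotation, which placed 273 of 273 genes. Alternatives changed the scaling, depth, UMI limits, member rule, doublets and free RNA.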

Additional observations from a re-analysis of the deposited data

How the results depend on the processing

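No paired analysis was possible because the barcodes of a matrix cannot be traced to the 4 samples of its group, and for the same reason no sample could be left out. The ratio of ShhN to WT shares of members ranged from 0.182 to 0.285 over the settings. The share of members itself moved: in WT it was 0.757% with cells of 4500 UMIs or more, 1.02% after thinning, 1.12% with a marker sum of 3 or more, and 1.19% both without cells of 2 or more Neurod2 and Neurod6 UMIs and with Htr3a or Adarb2 required. In ShhN it was 0.165% with 4500 UMIs or more, 0.241% after thinning, 0.229% with a marker sum of 3 or more and 0.217% with Htr3a or Adarb2 required. Members per Lhx6-positive cell in WT were 0.339 with 4500 UMIs or more, 0.175 with a marker sum of 3 or more, 0.440 with 2 or more Lhx6 UMIs and 0.185 with Htr3a or Adarb2 required. In ShhN they were 0.118, 0.366 and 0.112 under the last 3 of these. The count of genes passing between libraries in members, 11, was 19 with equal weight per cell (5 higher and 14 lower), 3 after thinning, 27 with a limit of 20 UMIs, 7 with 100 UMIs and 4 with Htr3a or Adarb2 required. The count between members and Lhx6-positive cells in ShhN, 35, was 61 with equal weight, 64 with 20 UMIs and 60 with Htr3a or Adarb2 required, and TMM scaling split it as 14 higher and 29 lower, against 17 and 18. The count between libraries in Lhx6-positive cells, 33, was 13 after thinning, 57 with 20 UMIs and 21 with 100 UMIs, and with doublets removed 17 were higher and 18 lower, against 8 and 25. Fewer UMIs are left after thinning, and the UMI limits change which genes are tested; the cause of the other moves was not tested. The excitatory marker median between libraries in Lhx6-positive cells turned to 0.10 with doublets removed, and the erythroid marker median between members and Lhx6-positive cells in WT turned to 0.047 without cells above 1% globin. Of the 29 genes named against Lhx6-positive cells in WT, 29 still passed under TMM scaling, equal weight, free RNA subtraction and the globin limit, 27 with doublets removed, 26 with Htr3a or Adarb2 required, 21 without Neurod2 and Neurod6 cells and 18 after thinning. Of the 7 named between libraries, 6 still passed under TMM scaling, 7 with free RNA subtracted and 7 under the globin limit, 4 with doublets removed, 3 with equal weight, 1 without Neurod2 and Neurod6 cells and 0 after thinning or with Htr3a or Adarb2 required, where Sst had no UMI. Requiring Htr3a or Adarb2 and leaving out cells above 1% globin were chosen after seeing the data. The 34 ShhN members and 1 library per group limit every comparison between libraries.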
